A study of Mus musculus with 9 samples.

Results

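Fos, Fosb, Jun, Junb, Jund, Atf3, Egr1, Ier2, Klf2 and Klf4 are 10 of the 27998 genes counted in single cells sorted from the mouse retina, and all 10 were found by symbol. They were chosen by their RNA levels in these same cells, since earlier results on these libraries had shown a cell cluster led by Jun, Jund and Fosb and a lower level of Klf4 after light. Their levels across cells and across days are therefore given as a description, and the numbers of members past the threshold of a fit over all genes are printed between days only to describe them, beside the share of all genes, with no support drawn from them. Retinal cells positive for CD45 and CD11b, the surface proteins of leukocytes and myeloid cells, were taken from female Arr1-/- mice 2 to 5 months old, which lack rod arrestin and lose their photoreceptors in light. All mice, controls included, were Arr1-/- and were born and kept in constant darkness. Day 0 mice stayed in the dark, and day 7 and day 20 mice were moved into unbroken room light of about 200 lux, for 7 and 20 days. Each day had 3 single-cell 3′ RNA libraries, 9 in all, the titles of which write the time in hours where the treatment label writes days. The study drew on 8 retinas from 4 mice per time point, but no source ties a library to an animal, so that differences between libraries of one day may be technical.

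Fos and Jun proteins pair through leucine zippers to form AP-1, a transcription factor complex that binds short DNA sites in promoters and enhancers. The Fos proteins cannot pair with themselves and need a Jun partner, while Jun proteins also pair with each other and with Atf3, a member of the related ATF family that often acts as a repressor. Immediate-early genes are transcribed within minutes of a stimulus, without new protein synthesis, through factors already bound at their promoters, such as serum response factor and CREB, and their RNAs decay quickly. In microglia, the resident macrophages of retina and brain, they respond to injury, ATP and cytokines, and also to handling of the tissue; retinas of every day were digested with collagenase at warm temperature before sorting. Egr1 is a zinc finger factor of the same early wave, Ier2 is an early nuclear regulator, and Klf2 and Klf4 are Krüppel-like factors that set the resting or inflammatory state of myeloid and endothelial cells.

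The DNA just before the start sites of the Fos and Jun genes is shown because their proteins form AP-1 and because CREB sites are a route by which early genes are switched on. RefSeq (GRCm38.p6) gave the promoters of 8 of the 10 genes, each from 250 bases before to 50 bases after the start. The 150 bases before the start are printed 5′ to 3′ on the strand of the gene. Capitals mark TGACG, the core of a CREB site, and in Jun the related TGACATCA. The regions are chr12:85473740-85473889 on the plus strand for Fos and, on the minus strand, chr7:19310046-19310195 for Fosb, chr4:95052223-95052372 for Jun and chr8:84978749-84978898 for Junb.
Fos: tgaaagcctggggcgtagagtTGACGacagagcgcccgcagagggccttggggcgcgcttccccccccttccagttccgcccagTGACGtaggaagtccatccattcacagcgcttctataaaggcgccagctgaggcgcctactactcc
Fosb: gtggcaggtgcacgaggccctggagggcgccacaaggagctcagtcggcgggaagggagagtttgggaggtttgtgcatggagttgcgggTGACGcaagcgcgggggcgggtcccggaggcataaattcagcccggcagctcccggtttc
Jun: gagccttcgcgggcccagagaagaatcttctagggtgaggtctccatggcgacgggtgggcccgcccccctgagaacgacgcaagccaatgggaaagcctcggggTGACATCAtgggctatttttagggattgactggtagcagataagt
Junb: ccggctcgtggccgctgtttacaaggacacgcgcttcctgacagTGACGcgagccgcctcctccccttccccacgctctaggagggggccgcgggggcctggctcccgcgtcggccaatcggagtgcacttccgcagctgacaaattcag
TGACG was found on either strand in 6 of the 8 promoters (Fos, Fosb, Junb, Klf2, Klf4 and Atf3) and in 20.8% of all 32851 mouse promoters of this length. Fos held it 129 and 66 bases before the start, Junb 106 bases before it and Fosb 60 bases before it. TGACATCA lay 45 bases before the start of Jun and was in 3.62% of all promoters. The full CREB site TGACGTCA, which contains TGACG, was in none of the 8 windows and in 1.79% of all, the AP-1 site TGACTCA was in none and in 5.20% of all, and the serum response factor site known as the CArG box was in none and in 1.63% of all. A match describes these letters only and does not show that a protein was bound. Sites more than 250 bases before the start, and the promoters of Egr1 and Ier2, were not searched, so that no match in these windows does not mean that a gene lacks the site.

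Jun, Junb, Jund and Ier2 are genes of a single exon, whereas Fos and Atf3 have 4 exons and Klf2 has 3. Junb, Jund, Ier2 and Klf2 lie on chromosome 8 and Jun and Klf4 on chromosome 4. Genes on the opposite strand overlap Jun (Junos), Junb (Prdx2), Jund (Gm11175) and Atf3 (Gm24748). How the counting used strand is not given in the sources used here. Whether reads of the overlapping genes entered the counts of these 4 was not tested.

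The 9 libraries shared many cell barcodes: of 1365 different barcodes, 612 were found in more than 1 library and 270 in all 9. Each barcode was therefore kept only in the library in which its total of UMIs (unique molecular identifiers, 1 for each captured RNA molecule) was highest. After filters on quality and on cell type markers, 733 cells with 1114585 UMIs remained (252 of day 0, 284 of day 7 and 197 of day 20). The libraries held 17 to 194 cells and 20443 to 277725 UMIs, and the smallest were replicate 3 of day 7 with 17 cells and replicate 3 of day 20 with 31. Sag, the gene that Arr1-/- mice lack, gave 11 UMIs in all deposited barcodes, at most 2 in a library. Myeloid marker RNA (17 genes) was at 38390 to 60499 CPM (UMIs per 1000000 UMIs of a library) in every library.

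The 10 members together made up 19732 UMIs, and their share of all UMIs was high in the dark, low after 7 days of light and between these at 20 days. In the 3 libraries of day 0 they reached 30673, 33063 and 40106 CPM, or 3.07%, 3.31% and 4.01% of all UMIs. At day 7 they reached 3802, 2188 and 4794 CPM, and at day 20 19117, 11373 and 7200 CPM. The 3 days did not overlap in these sums, with means of 34614 ± 4904, 3595 ± 1315 and 12563 ± 6047 CPM (SD, n = 3). In such sums over a library, fewer cells of a type and less RNA per cell cannot be told apart. Cells with more UMIs also weigh more in them. With 500 UMIs drawn from each cell, mean member UMIs per cell were 7.22, 9.06 and 9.26 in the day 0 libraries. They were 1.73, 0.85 and 2.92 at day 7 and 3.10, 2.39 and 2.50 at day 20. By this measure days 7 and 20 overlapped.

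**Figure D1:**
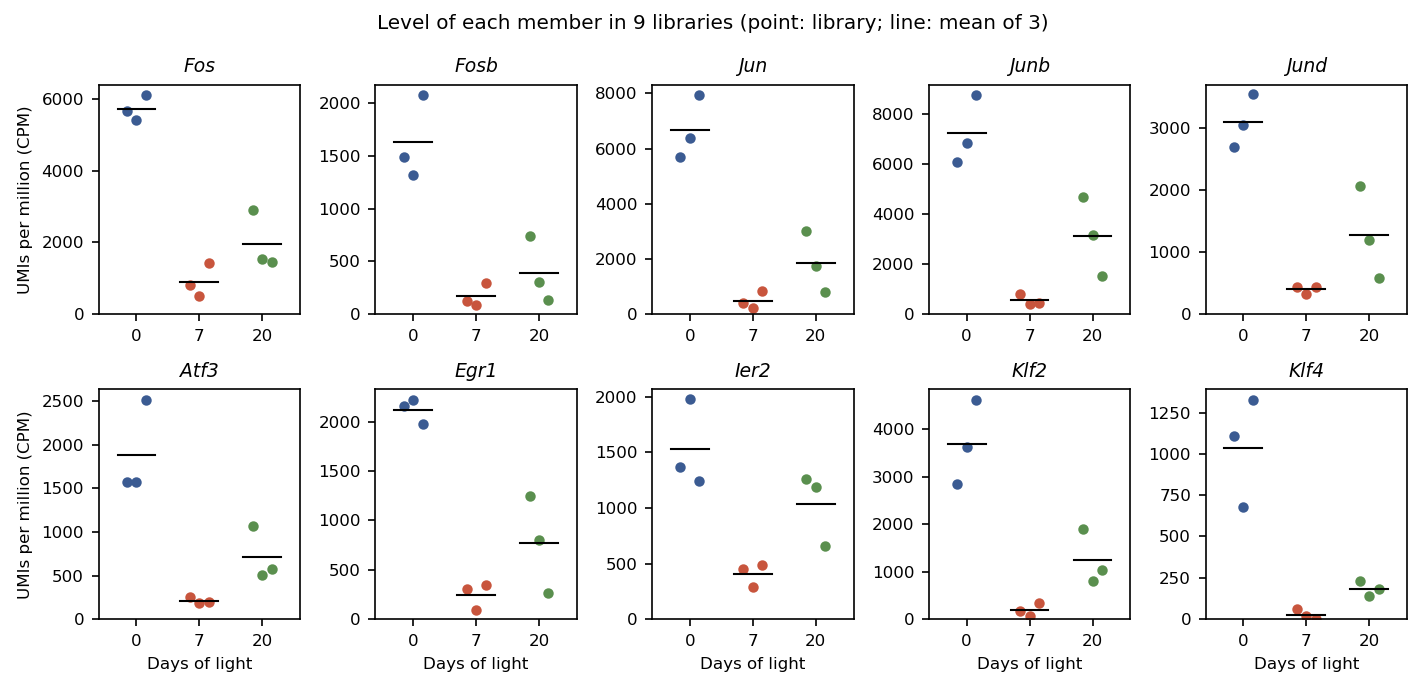
Level of each member (CPM in the summed cells of a library) by days of light. Each point is 1 of 3 libraries of a day and each line their mean. For all 10 genes the day 7 points lie below the day 0 points, from Klf2 at 70 to 342 CPM against 2845 to 4618 to Ier2 at 288 to 489 CPM against 1242 to 1983.

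Among the Fos proteins, which give AP-1 its strongest activators, Fos was at 5653, 5399 and 6118 CPM in the day 0 libraries, 803, 507 and 1419 CPM at day 7 and 2900, 1530 and 1450 CPM at day 20. Fos was 6.20-fold lower at day 7 than at day 0 (log2 fold change −2.63 ± 0.37, SE, edgeR). The days did not overlap, but days 7 and 20 were parted only narrowly. Their nearest libraries, both replicate 3, were at 1419 CPM (29 UMIs) and 1450 CPM (55 UMIs). Fosb, whose shorter splice form builds up after repeated stimulation in neurons, was at 1490, 1317 and 2074 CPM at day 0 and at 122, 90 and 293 CPM at day 7. At day 20 its libraries spread over 738, 302 and 132 CPM, overlapping day 7 but not day 0. The difference at day 7 was −3.48 ± 0.52 on the log2 scale, with 49 UMIs of Fosb in all of day 7.

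The Jun proteins are the partners common to all AP-1 dimers. Jun, the most active of them, was at 5689, 6367 and 7934 CPM at day 0 and at 392, 219 and 832 CPM at day 7, a log2 difference of −3.88 ± 0.49. Junb, a weaker activator that can restrain Jun, was at 6094, 6846 and 8755 CPM at day 0, at 814, 398 and 440 CPM at day 7 and at 4681, 3155 and 1530 CPM at day 20. No library of one day overlapped those of another for Junb, and its day 7 difference was −3.49 ± 0.40. Jund, the Jun gene with the steadiest expression in most cells, was at 2691, 3040 and 3539 CPM at day 0 and at 443, 328 and 440 CPM at day 7, which was 7.02-fold lower. Atf3, which is induced by stress, was at 1569, 1572 and 2520 CPM at day 0 and at 248, 179 and 196 CPM at day 7. This was a log2 difference of −2.99 ± 0.37, with 91 UMIs of Atf3 at day 7, 4 of them in replicate 3.

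Outside the bZIP family, the Krüppel-like factors differed most at day 7. Klf2, which holds myeloid cells in a quiescent state, was at 2845, 3639 and 4618 CPM at day 0, 162, 70 and 342 CPM at day 7 and 1908, 800 and 1029 CPM at day 20. All libraries of day 7 were below those of day 20, and these below day 0. Klf2 was 22.1-fold lower at day 7 than at day 0 (−4.47 ± 0.48). This size also rests on few molecules, as Klf2 had 59 UMIs at day 7, with 7 in each of replicates 2 and 3. With barcodes counted in every library it was −0.91 (adjusted p = 0.0905, edgeR). Klf4 was at 1110, 677 and 1324 CPM at day 0 and at 61, 20 and 0 CPM at day 7, where it had 19 UMIs in all, so that the size of its difference (−4.40 ± 0.47) rests on few molecules. Egr1 was at 2164, 2223 and 1981 CPM at day 0 and 306, 90 and 342 CPM at day 7 (−3.06 ± 0.50). Ier2 differed least, from 1367, 1983 and 1242 CPM at day 0 to 450, 288 and 489 CPM at day 7 (−1.82 ± 0.34).

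The median log2 difference of the 10 members at day 7 was −3.27, against −0.06 over the 1377 genes tested. All 10 were called lower (adjusted p under 0.05, edgeR's quasi-likelihood test), as were 16.6% of all genes tested, and in all 10 the libraries of day 7 lay below those of day 0, as for 26.2% of all genes. These counts describe genes chosen for such values. The median ran from −3.49 to −3.03 over the 9 fits that dropped 1 library, and with only cells without MHC class II RNA it was −3.43; this fit dropped replicate 3 of day 7, which had 3 such cells. When each barcode was counted in every library in which it was deposited, the median was −0.89. In that fit 4 members were called lower, as were 1.28% of all genes tested.

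**Figure D2:**
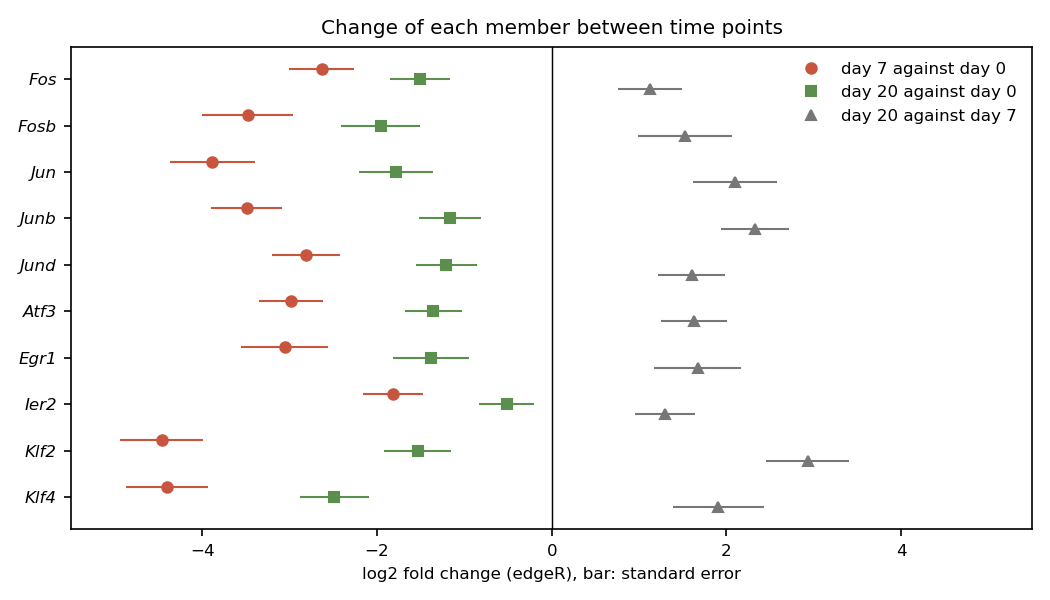
Log2 fold change of each member in edgeR (horizontal axis) with its standard error (bars), for day 7 against day 0 (circles), day 20 against day 0 (squares) and day 20 against day 7 (triangles). The circles run from −4.47 (Klf2) to −1.82 (Ier2), the squares from −2.49 (Klf4) to −0.52 (Ier2) and the triangles from 1.12 (Fos) to 2.93 (Klf2).

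At day 20 the median log2 difference of the members from day 0 was −1.45, against 0.01 over all genes. Klf4, at 229, 139 and 185 CPM, was furthest from its day 0 level, 5.62-fold lower (−2.49 ± 0.39), followed by Fosb (−1.96 ± 0.45) and Jun (−1.79 ± 0.42), which was at 3014, 1763 and 791 CPM. Klf2 (−1.54 ± 0.38), Fos (−1.51 ± 0.34), Egr1 (−1.38 ± 0.44) and Atf3 (−1.35 ± 0.33), at 1068, 504 and 580 CPM, lay between these and Jund (−1.21 ± 0.35), Junb (−1.16 ± 0.36) and Ier2 (−0.52 ± 0.31). The fit called 6 members lower, against 1.60% of all genes tested. Ier2, at 1259, 1190 and 659 CPM, alone overlapped day 0, and the other 9 lay below it in all libraries, as did 15.0% of all genes. The count of 6 fell to 1 when replicate 1 or 3 of day 0, replicate 1 of day 7 or replicate 2 of day 20 was left out. It fell to 2 without replicate 3 of day 20. In these fits 0.528% to 1.02% of all genes were called lower. With barcodes counted in every library the count was 0, and 0 genes were called.

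Between day 7 and day 20 all 10 log2 differences were above 0, with a median of 1.65 against 0.05 over all genes. Klf2 (2.93 ± 0.47), Junb (2.33 ± 0.39) and Jun (2.10 ± 0.48) differed most, Klf2 by 7.62-fold and Junb by 5.03-fold. Klf4 (1.91 ± 0.52), Egr1 (1.67 ± 0.50), at 1246, 800 and 264 CPM at day 20, Atf3 (1.63 ± 0.37), Jund (1.61 ± 0.38), Fosb (1.52 ± 0.54), Ier2 (1.30 ± 0.34) and Fos (1.12 ± 0.37) followed. The fit called 7 members higher, against 4.14% of all genes. In 7 members the libraries did not overlap, as in 13.8% of all genes. Fos was among them by a narrow margin, with day 7 up to 1419 CPM and day 20 from 1450 CPM. Jun, Fosb and Egr1 overlapped through replicate 3 of day 20. The count of 7 fell to 2 without replicate 1 or 2 of day 7 or replicate 1 of day 20, where 0.853% to 0.925% of all genes were called higher. The count was 4 without replicate 2 of day 20 (1.91% of all genes). It was 0 when each cell was thinned to 500 UMIs, which gives every cell the same weight (1.56% of all genes were called higher). With barcodes counted in every library it was 0, and 0 genes were called.

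At day 0 most member UMIs were in a minority of cells. After thinning each cell to 500 UMIs, which left out 123 shallower cells, the 610 others held 0 to 62 member UMIs each with a median of 1. Cells with at least 10 member UMIs, or 2% of their RNA, are called member-rich here; the limit was set on the members themselves and cuts a range, with 19 cells near it. Member-rich cells made up 23.7% ± 5.99 of the cells of day 0 (SD over 3 libraries), and after light 3.85% ± 3.89 on day 7 and 6.69% ± 2.47 on day 20. By library they were 17.6%, 29.5% and 23.9% at day 0, 1.74%, 1.47% and 8.33% at day 7 and 8.33%, 7.89% and 3.85% at day 20. Day 0 did not overlap the later days, while days 7 and 20 overlapped. Thinning to 1000 UMIs kept only the 328 deeper cells, with 8 in replicate 3 of day 7 and 11 in replicate 3 of day 20. The means were then 39.5%, 0.333% and 15.8%, and days 7 and 20 did not overlap (0% to 1.0% against 11.4% to 18.2%). With 732 cells thinned to 300 UMIs the means were 20.9%, 3.10% and 5.43%. Days 7 and 20 overlapped there (1.37% to 5.88% against 4.21% to 6.45%). At 500 UMIs only 5 cells at day 7 and 11 at day 20 were member-rich, against 50 at day 0.

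**Figure D3:**
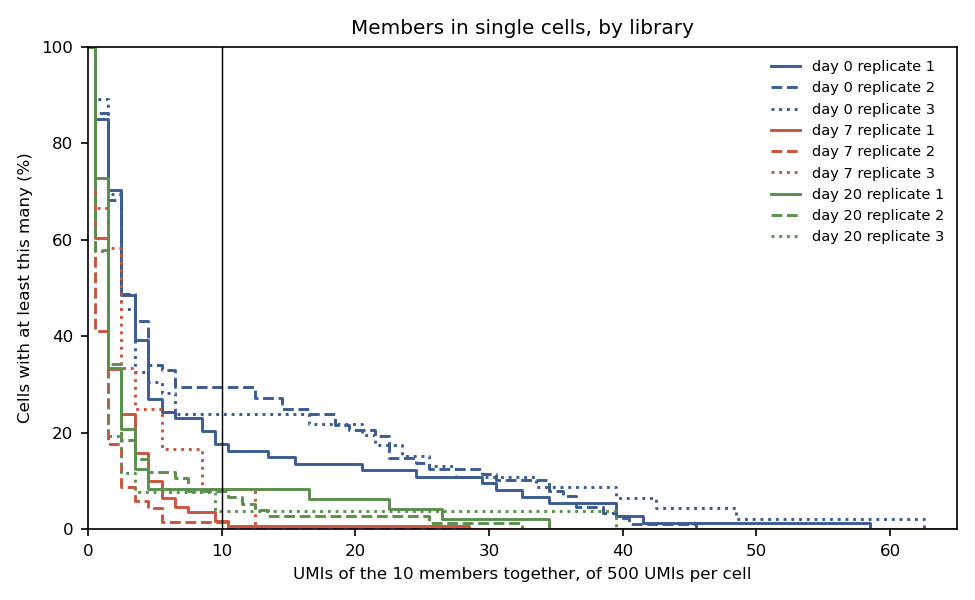
Percentage of cells (vertical axis) with at least a given number of UMIs of the 10 members among 500 UMIs per cell (horizontal axis), 1 line per library. At the vertical line, at 10 UMIs, the day 0 libraries stand at 17.6% to 29.5% and all others at 8.33% or less, and the tail of day 0 reaches 62 UMIs.

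At day 0 the member-rich cells carried 80.1% ± 7.16 of all member UMIs, with a mean of 29.3 ± 3.17 of 500, while the other cells had a mean of 2.13 ± 0.285. At day 20 the means of member-rich cells were 24.5, 17.2 and 39.0 of 500 in the 3 libraries, the last from 1 cell. The mean over libraries was 26.9 ± 11.1 and that over the 11 cells 21.8. The member-rich cells carried 60.8% ± 4.64 of member UMIs, and the other cells had a mean of 1.11 ± 0.0619. At day 7 the member-rich cells carried 22.5% ± 10.2 of member UMIs as a mean over libraries, and the 5 cells together 17.9%. Most member UMIs thus lay in the other cells, which had a mean of 1.43 ± 0.689. The content of member-rich cells is not compared with day 7, where 2 of the libraries had 1 such cell each. In the dark 13.1% ± 2.05 of cells had no member UMI, and after light 43.9% ± 13.3 (day 7) and 37.2% ± 8.73 (day 20).

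Single members followed the same order of day 0 above the later days. Junb had a UMI in 51.9% ± 1.73 of thinned day 0 cells, with 19.7% ± 5.97 on day 7 and 26.2% ± 3.46 on day 20 (59.8%, 32.9% and 29.5% unthinned), and Egr1 in 39.1% ± 1.89, 10.4% ± 6.94 and 14.8% ± 3.45 (57.5%, 22.5% and 22.2% unthinned). Among 87 sorted cells that failed the marker rule, many of them with rod photoreceptor RNA, Junb had a UMI in 39.1% and Egr1 in 26.4%, with a median depth of 1367 UMIs per cell against 1071 in the retained cells. The shares of days 7 and 20 were below these for all 10 members, and a UMI in a single cell of those days is not read as expression by that cell. Of the 118 left-out cells of any depth, 79 came from day 0, so that this comparison is not matched by day. At day 0 all 10 shares were above those of the left-out cells, those of Fos (46.5% ± 6.78 against 43.7%) and Jun (39.0% ± 4.57 against 34.5%) by less than their SD.

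Depth moved with the members. The member-rich cells of day 0 had a median of 4369 UMIs against 955 in the others, and those of day 20 4677 against 890. Retained cells were therefore also divided at 2000 UMIs, a limit chosen after the data were seen. Such deep cells were 20.3% ± 3.31 of the day 0 cells, 17.8% ± 0.198 of those of day 7 and 13.9% ± 7.31 of those of day 20. In deep cells the members were at 45017, 47521 and 64858 CPM in the day 0 libraries but at 4745, 2983 and 4477 CPM in those of day 7. At day 20 they were at 46852 CPM in replicate 1, which had 4 deep cells, at 17428 CPM in replicate 2 with 16 and at 5569 CPM in replicate 3 with 6. In cells under 2000 UMIs the members were at 6643, 9632 and 10066 CPM in the dark, at 3002, 1628 and 5051 CPM after 7 days and at 2540, 2526 and 8411 CPM after 20 days.

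**Figure D4:**
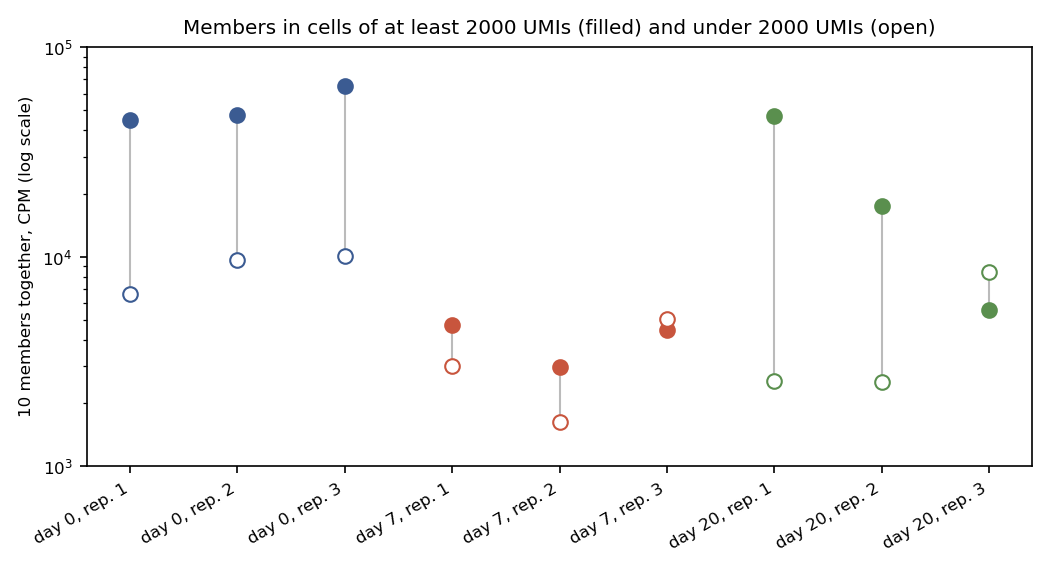
CPM of the 10 members together (vertical axis, log scale) in the deep (at least 2000 UMIs, filled) and other (open) retained cells of each library. Deep cells of day 0 stand at 45017 to 64858 CPM and those of day 7 at 2983 to 4745 CPM, while the open points of all days lie between 1628 and 10066 CPM.

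Deep cells held 89.8% ± 1.81 of all member UMIs at day 0, so that its library sums are largely sums over 53 deep cells. They held 51.8% ± 8.67 at day 7 (51 cells) and 71.9% ± 33.7 at day 20 (26 cells), where replicate 3 had 33.0%. With cells under 2000 UMIs alone, the median log2 difference of the 9 members that could be tested was −1.88 at day 7 and −0.95 at day 20. Of these 9, edgeR called 5 and 1 lower, as it did 6.58% and 2.03% of the 790 genes tested. Between day 7 and day 20 the median was 0.50 and no member was called, with Fos, Fosb and Ier2 lower at day 20. Deep cells of day 0 carried 16525 to 20776 CPM of 12 homeostatic microglia genes and 206 to 299 CPM of MHC class II genes, whereas deep cells of day 7 carried 4210 to 5570 CPM and 8444 to 82560 CPM. The part of these differences in the member levels was not tested.

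Members varied together from cell to cell at day 0. Across the 208 thinned cells of day 0, with the mean of each library removed, the 45 pairs of members had a median rank correlation of 0.46, from 0.30 (Fos with Atf3) to 0.64 (Jun with Junb). The median was 0.10 across 252 cells of day 7 and 0.26 across 150 cells of day 20, where Fos with Jun was highest at 0.51. Over all 610 cells Jun had the highest median correlation with the others (0.39) and Egr1 the lowest (0.26). These are descriptions of sparse counts, in which genes with fewer UMIs per cell correlate less, and no order between days is read from them.

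**Figure D5:**
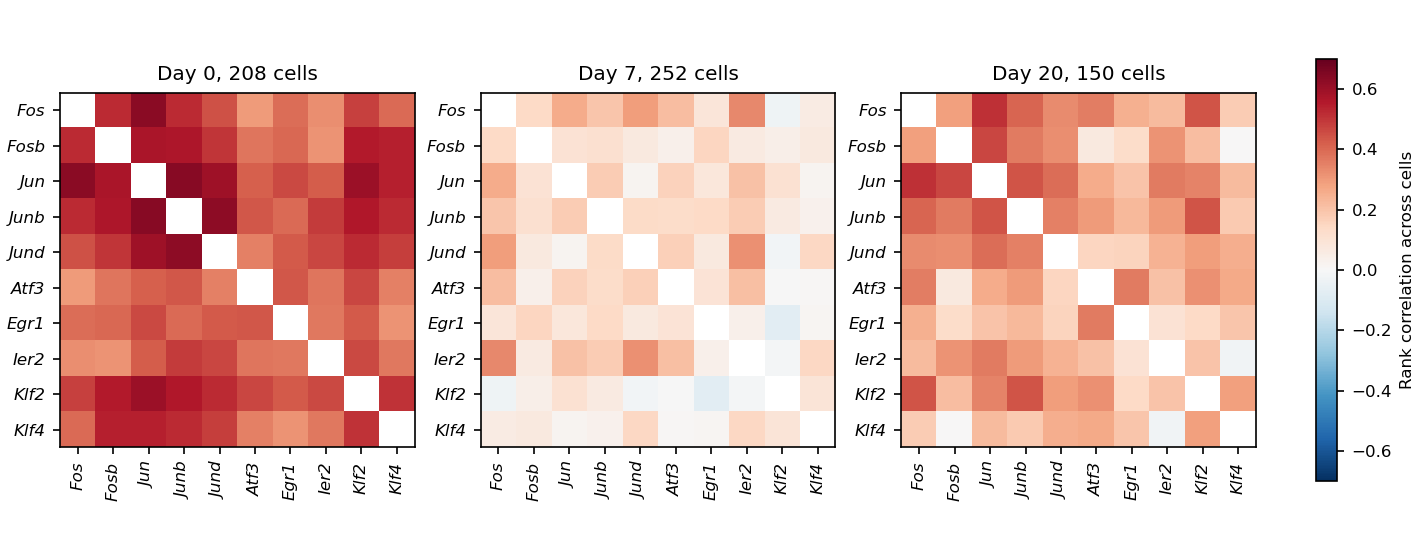
Rank correlation (colour) between each pair of members across cells thinned to 500 UMIs, with library means removed, at each day; the diagonal is blank. Day 0 (208 cells) ranges from 0.30 to 0.64, day 7 (252 cells) from −0.07 to 0.34 and day 20 (150 cells) from −0.03 to 0.51.

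Among the genes outside the 10 whose log2(CPM + 1) followed the summed members most closely across the 733 cells, of 1155 genes detected in at least 10% of cells, were Btg1 (Pearson's r = 0.34), Dusp1 (0.33), Pnrc1 (0.32), Ccl3 (0.31), Klf6 (0.30), Ccl4 (0.30), Neat1 (0.29), Ier5 (0.29) and Cebpb (0.29). The median over all 1155 genes was 0.11. With cells thinned to 500 UMIs the order was not the same, with Ccl3 at 0.30, Dusp1 at 0.28, Klf6 at 0.26, Ier5 at 0.25, Ccl4 at 0.25, Btg1 at 0.22 and Cebpb at 0.15, while Pnrc1 and Neat1 had no value. Btg1 is an antiproliferative early gene, Dusp1 a phosphatase that switches off MAP kinases, and Ccl3 and Ccl4 are chemokines of activated microglia.

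The wider early response had the same direction as the members at day 7. Of 17 feedback regulators, which limit the signals that induce early genes, 15 could be tested and 12 were lower at day 7, against 16.6% of all genes. Dusp1 was at 3262 ± 941 CPM at day 0 and 470 ± 208 CPM at day 7 (log2 difference −2.78 ± 0.36, adjusted p = 6.69e-05, edgeR), and Socs3, an inhibitor of cytokine signalling, at 1058 ± 461 and 96.7 ± 48.6 CPM (−3.53 ± 0.57, adjusted p = 0.000386). Nfkbia, the inhibitor of NF-kB, differed by −2.67 ± 0.40 and Ppp1r15a, which restarts translation after stress, by −3.33 ± 0.56. Of 14 other early transcription factors 8 could be tested and 6 were lower (16.6% of all genes), led by Ier5 (−3.10 ± 0.45), Nfkbiz (−3.01 ± 0.46), Klf6 (−2.90 ± 0.51) and Csrnp1 (−2.21 ± 0.47). Medians were −2.35 for the feedback regulators and −2.53 for the other early factors, against −0.06 over all genes.

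Of 12 further AP-1 and bZIP partners only Atf4, Maff and Mafg could be tested, and all 3 were lower at day 7, like 16.6% of all genes, Atf4 from 296 ± 63.2 to 39.1 ± 35.2 CPM (−2.59 ± 0.70, adjusted p = 0.0142, edgeR). Maff had 4 UMIs and Mafg 8 in all of day 7. Of 16 upstream regulators 5 could be tested and 3 were lower (16.6% of all genes), Mef2c (−1.74 ± 0.43), Mef2a (−2.24 ± 0.62) and the kinase gene Map3k8 (−1.59 ± 0.56). At day 20, by comparison with day 0, where 1.60% of all genes were called lower, Dusp1 (−2.06 ± 0.33, adjusted p = 0.0024, edgeR), Ier5 (−1.62 ± 0.39) and Klf6 (−1.78 ± 0.45) were lower and no gene of the partners or of the upstream regulators was called. From day 7 to day 20, 6 of the 15 feedback regulators were called higher (4.14% of all genes were). Among them were Socs3 (2.87 ± 0.58), Sgk1 (2.66 ± 0.64), Nfkbia (1.84 ± 0.41) and Btg2 (1.81 ± 0.38). Of the other early factors Nfkbiz was called higher (1.97 ± 0.48). Day 20 libraries spread widely, with Socs3 at 638 ± 431 CPM and Sgk1 at 445 ± 437 CPM. With barcodes counted in every library, 0 genes were called here or at day 20 against day 0. From day 7 to day 20, cells thinned to 500 UMIs had 8 of 513 genes called higher. Every barcode in its library of most UMIs had 1 of 2562.

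Other RNAs also differed between days, not all in the order of the members. The 12 homeostatic microglia genes were at 18248 to 20194 CPM at day 0, 4706 to 5772 CPM at day 7 and 10628 to 13123 CPM at day 20. At day 7, 11 of 11 tested were lower (16.6% of all genes were), such as P2ry12, the ADP receptor of resting microglia (−2.70 ± 0.34). The 4 MHC class II genes ran the other way, at 620 to 2227, 10193 to 40405 and 5932 to 14792 CPM. RNA of 12 rod genes was at 1078 to 6247 CPM at day 0 against 328 to 1027 at day 7 and 189 to 992 at day 20. Of 12 heat shock genes, which tissue handling also induces, 7 could be tested. At day 7, 5 were lower (16.6% of all genes were), Hspa1a by −4.84 ± 0.74 and Dnajb1 by −3.28 ± 0.50. Hspe1 was higher (1.17 ± 0.33), as were 10.2% of all genes. From day 7 to day 20, 0 of the 7 were called, with a median log2 difference of 0.24. Within day 0 the heat shock genes were at 7240 CPM in member-rich cells and 2671 CPM in the others. Other lists differed between these cells too. The feedback regulators were at 21280 against 2785 CPM and the homeostatic microglia genes at 24600 against 17506 CPM. MHC class II genes went the other way, at 400 against 2443 CPM. The part of these RNAs in the member levels was not tested.

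The last comparison asked whether the members differed between cells with and without MHC class II RNA of the same libraries. The division used no member. The members themselves were chosen by their levels in these same cells, so that the outcome is also only a description. Class II-positive cells had at least 2 UMIs of Cd74, H2-Aa, H2-Ab1 and H2-Eb1 among 500 and negative cells none, and 4 libraries, replicates 1 and 2 of days 7 and 20, had at least 10 cells of each. The members together were at 4383 and 1982 CPM in the positive and 3202 and 2662 CPM in the negative cells of day 7. At day 20 they were at 22492 and 8998 CPM in the positive and 13140 and 6731 CPM in the negative cells. Positive cells were higher in 3 of the 4 libraries, a count that is not read as a tendency of the class. The positive class had 101 and 27 cells at day 7 and 20 and 17 at day 20, and the negative class 26 and 21, and 16 and 38. In replicate 1 of day 20, 4 deep cells held 91.7% of the member UMIs of all its retained cells, whether in a class or in neither. How much of the class sums these 4 cells held was not tested. Of the 11 member-rich cells of day 20, 18.2% were class II-positive, against 30.9% of the other cells.

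No member was called between the classes among the 7 that could be tested, while 5 of the 393 genes tested (1.27%) were, 4 of them the class II genes that defined the classes. Jun differed by 0.92 ± 0.28 (adjusted p = 0.226, edgeR) and Fos by 0.81 ± 0.29 (adjusted p = 0.326), the only members with an unadjusted p under 0.05, and Junb by −0.09 ± 0.20 (adjusted p = 0.918). DESeq2 called no member either. Without replicate 1 of day 7 edgeR called 1, Fos, higher in the positive cells (1.13, adjusted p = 0.0392), as it did 3.01% of the 365 genes tested. With barcodes counted in every library in which they were deposited, 6 members were called lower in the positive cells. So were 12.2% of the 663 genes tested in that fit, and 14.0% were called higher. Jun differed by −1.44 there. In cells without class II RNA, whose homeostatic microglia genes were at 19047 to 20782 CPM at day 0 and at 3929 and 6759 CPM at day 7, the members were at 31523, 33922 and 40384 CPM at day 0, against 3202 and 2662 CPM at day 7 and 13140, 6731 and 15044 CPM at day 20.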

How the data were processed

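Single CD45+ CD11b+ retinal cells of 9 libraries were profiled with 10x Genomics 3′ chemistry. The deposited matrices hold raw UMI counts per gene and barcode, which the authors made with Cell Ranger on mm10 per the labels (version not given in the sources used here). Retained cells had at least 200 genes, under 10% mitochondrial UMIs and more UMIs of 17 myeloid than of 57 other marker genes, and each barcode was kept only in its library of most UMIs. No doublet caller was run. UMIs were summed per library (20443 to 277725, so that 3 UMIs are worth 10.8 to 147 CPM), and all genes that passed the count filter were fitted together with edgeR 4.0.16 (R 4.3.3; TMM, quasi-likelihood, Benjamini-Hochberg, threshold 0.05, two-sided), after a test on simulated data. SDs and p-values measure the spread between libraries. MHC class II classes were fitted with library as a block. Cells were thinned with Python 3.11.15. DESeq2 1.42.0, other filters and cell choices and leaving out libraries were alternatives. The members, the other gene lists and the comparisons were chosen with earlier results of these data known. Named were all 10 members, in each other list up to 4 genes of smallest p among those past the threshold, and the 10 genes best correlated with the members, of which 1 is not reported here; Crybb2, of a lens list outside the pathway, also passed it and is not described. Whether replicate numbers pair libraries was checked: same-numbered libraries had correlations of −0.06 to 0.20 (median 0.03) and differently numbered ones −0.15 to 0.12 (median −0.02). These ranges overlapped, and the numbers were not taken as pairs.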

Additional observations from a re-analysis of the deposited data

Results flagged for a closer look

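The cells that the marker rule left out entered no main comparison, only the alternative fits without that rule. The 17 such cells of day 20 held the members at 17954 CPM, above the 9592 CPM of the 79 left-out cells of day 0. At day 7, 22 left-out cells held 5764 CPM. A single cell carried 73.9% of the member UMIs of the left-out cells of day 20. The difference was not tested.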

How the results depend on the processing

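At day 7 against day 0, 10 members were called lower and 368 genes were called in all. Leaving out each library in turn gave 197 to 549 genes and kept 10 members, with 7.22% to 15.5% of all genes called lower. The marker rule removed gave 183 genes, every barcode in its library of most UMIs 163 and cells thinned to 500 UMIs 105. Deposited counts, in which a barcode counts in each library that holds it, gave 73 genes and 4 members (1.28% of all genes lower). At day 20 against day 0 the main counts were 37 genes and 6 members lower. Leaving out libraries gave 19 to 56 genes and 1 to 9 members, with 0.528% to 1.89% of all genes called lower. DESeq2 called 9 members (2.32% of all genes were lower) and library totals without TMM 7 (2.54%). The count of members was 3 without the filter on low counts (0.20% of all genes). It was 1 with the marker rule removed (1.05%) or with every barcode (0.742%). Deposited counts called 0 genes and 0 members (213 genes at an unadjusted p under 0.05), and cells of at least 100 detected genes gave 62 genes. At day 20 against day 7 the main fit called 71 genes, and 7 members higher. Leaving out libraries gave 15 to 122 genes and 2 to 9 members, with 0.853% to 3.31% of all genes called higher. The unfiltered table gave 41 genes and 3 members (0.20% of all genes higher), and cells without MHC class II RNA 3 members (4.76%). The marker rule removed gave 12 genes and 0 members, every barcode 3 genes and 0 members and thinned cells 9 genes and 0 members (Klf4 at −2.22). Deposited counts gave 0 genes and 0 members, with 160 genes at an unadjusted p under 0.05. Library totals without TMM moved the median of all genes at day 7 to −0.26. A fit with the replicate block gave 364, 39 and 61 genes and 10, 6 and 7 members in the 3 comparisons and changed no call of a member. In the direction of the members it called 15.5%, 1.67% and 3.49% of all genes.

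Between MHC class II classes, with 5 genes and 0 members called, leaving out libraries gave 4 to 12 genes and 0 to 1 member higher. The 1 member was Fos without replicate 1 of day 7, where 3.01% of all genes were called higher. Junb ran from −0.27 to 0.088, Atf3 from −0.085 to 0.93 and Egr1 from −0.25 to 0.57. Deposited counts gave 174 genes and called 6 members lower, Junb among them, against 12.2% of all genes tested. The sign reversed, whether called or not, in Fos at −0.90, Jun at −1.44, Jund at −0.51, Atf3 at −0.38, Egr1 at −0.91 and Ier2 at −0.43. Thinned to 1000 UMIs, which kept 328 cells, member-rich cells made up 39.5% at day 0, 0.333% at day 7 and 15.8% at day 20. Days 7 and 20 no longer overlapped there. Thinned to 300 UMIs (732 cells), member-rich cells made up 20.9%, 3.10% and 5.43%, and days 7 and 20 overlapped. Chosen after the data were seen, dropping both libraries of fewest cells gave 627 genes at day 7 and 121 between days 7 and 20. Cells under 2000 UMIs, also chosen after the data were seen, gave 88 genes and 5 members at day 7 (6.58% of all genes lower). They gave 1 member at day 20 against day 0, Fosb at −2.14 (2.03% of all genes lower). Atf3, at 0.20 there, reversed its sign and was not called. Between days 7 and 20 they gave 10 genes and 0 members, with Fos at −0.18, Fosb at −0.26 and Ier2 at −0.23. Of 209 member values under the alternatives at day 7, 198 kept their side of the threshold and the other 11 were lower without passing it. Of these 11, 6 came from deposited counts, 4 from cells under 2000 UMIs and 1 from every barcode. All these fits draw on the same 9 libraries and on genes chosen for such values, so that no support is drawn from the count. The causes of these shifts were not tested. The depth of 20443 UMIs in the smallest library limits every level at day 7, where 3 UMIs there are worth 147 CPM.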
